A study of Mus musculus with 12 samples.

Results

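At the end of an LPS response, B cells that had divided at least 8 times were sorted into a CD138-positive and a CD138-negative fraction, and their messenger RNA was compared here. The 4 libraries, 2 of each fraction, are chosen by their labels from a series of 12 libraries. Splenic B cells were taken from naive mice, loaded with a division-tracking dye, transferred into uMT mice, which lack B cells of their own, and challenged with LPS after a night of rest. All 4 libraries were sorted on day 3 from the same 2 hosts, numbered 196 and 197, each of which gave 1 library of each fraction. Div8pos denotes transferred cells with 8 or more divisions that carried CD138, and Div8neg denotes transferred cells with 8 or more divisions that did not. Per the labels the mice were 8-week-old females; the labels give the strain as B6.SJL-Ptprca Pepcb/BoyJ, while the design text names C57/BL6J donors, so both statements stand here as given. No agent other than LPS and no gene alteration in the transferred cells is named, and how many donors were pooled is not given in the sources used here. Each library was made from 40000 cells, to which synthetic ERCC transcripts in known numbers were added ahead of the extraction.

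CD138, the product of Sdc1, is a cell surface proteoglycan by which antibody-secreting cells are sorted. In the textbook account, a B cell that becomes an antibody-secreting cell switches on Prdm1, Irf4 and Xbp1, and loses Pax5 and the genes that Pax5 maintains, such as those of the B cell receptor and of antigen presentation. The secretory cell then widens its endoplasmic reticulum (ER), where antibody chains are folded, joined and given sugars before vesicles carry them out. Both fractions had divided at least 8 times, and the comparison asks what differs with CD138 within that gate; division number above 8 was not compared between the fractions.

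The libraries held 13233287 and 11799172 gene counts in Div8pos, against 14165452 and 12820479 in Div8neg. Spike-ins took 0.852 and 0.967% of gene and spike-in counts in Div8pos, against 1.50 and 1.39% in Div8neg. The label was checked on Sdc1, the sort marker, with 325 and 306 CPM in Div8pos, against 3.53 and 5.83 CPM in Div8neg; every Div8pos library stood far above both Div8neg libraries, which is the gate and no finding. Cd3e, a chain of the T cell receptor complex, had 1 and 2 counts in Div8pos, against 2 and 3 in Div8neg, and Ncr1 of NK cells had 0 and 1 in each fraction. Some other markers of those cells were lower in Div8pos: Cd2 had 207 and 237 counts in Div8pos, against 1495 and 1569 in Div8neg, Lck had 8 and 13 in Div8pos, against 136 and 132 in Div8neg, and Prf1 had 20 and 40 in Div8pos, against 102 and 84 in Div8neg. Others, with few counts, were higher in Div8pos. Klrk1 had 4 and 7 in Div8pos, against 1 and 0 in Div8neg, and Cd8b1 had 6 and 4 in Div8pos, against 3 and 3 in Div8neg. The T cell list summed to 6.30 and 7.34 mRNAs per cell in Div8pos, against 23.9 and 29.7 in Div8neg, and the NK list to 0.349 and 0.819 in Div8pos, against 0.987 and 0.911 in Div8neg. Myeloid markers summed to 77.0 and 75.0 CPM (here counts scaled to 1e6 per library) in Div8pos, against 687 and 712 CPM in Div8neg, where Itgam, Itgax, Mpeg1 and Flt3 made most of the difference. Of 15 tested myeloid markers 7 (46.7%) were lower, 1 (6.67%) was higher and 7 were not called. Over all tested genes 37.7% were lower and 38.8% higher. Mrc1 went the other way, with 144 and 93 counts in Div8pos, against 48 and 48 in Div8neg. The macrophage gene C1qa had 13 and 16 counts in Div8pos, against 8 and 14 in Div8neg. Stromal and endothelial markers summed to 23.0 and 19.9 CPM in Div8pos, against 184 and 173 CPM in Div8neg, most of it Pecam1. Madcam1 of that list was higher, with 27 and 15 counts in Div8pos, against 8 and 10 in Div8neg. Red cell message was uneven: Hbb-b1 had 17 and 0 counts in Div8pos, against 205 and 112 in Div8neg. Whether other cells in a gate had a part in any result was not tested. In sorted bulk cells, fewer cells of a type and less RNA per cell of that type cannot be told apart.

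The 2 fractions differed in most of the genes they expressed. Of 11511 genes with 10 or more counts in both libraries of either fraction, 4472 (38.8%) were higher and 4341 (37.7%) were lower in Div8pos at a Benjamini-Hochberg adjusted p under 0.05, together 76.6%. These calls are relative to all genes of a library and come from edgeR's quasi-likelihood test with the host as a block. With libraries scaled to the spike-ins instead, the split was 6398 higher and 1747 lower. Since 3037 of the 8813 called genes differed by less than 0.5 in log2, genes are described below mainly by size. At least 2-fold higher were 1175 genes (10.2%), and at least 2-fold lower were 2042 genes (17.7%). Relative to all genes the larger changes were mostly losses: 351 genes were 4-fold or more higher and 933 were 4-fold or more lower, and 50 against 277 passed 16-fold. With libraries scaled to the spike-ins the 2-fold split turned, with 3262 genes higher and 1216 lower. All 3217 genes past 2-fold moved the same way in both hosts. The p-values rest on 2 hosts and on a spread shared with the other 8 libraries of the series, and nothing in the labels says that the hosts were repeat experiments made apart.

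**Figure D1:**
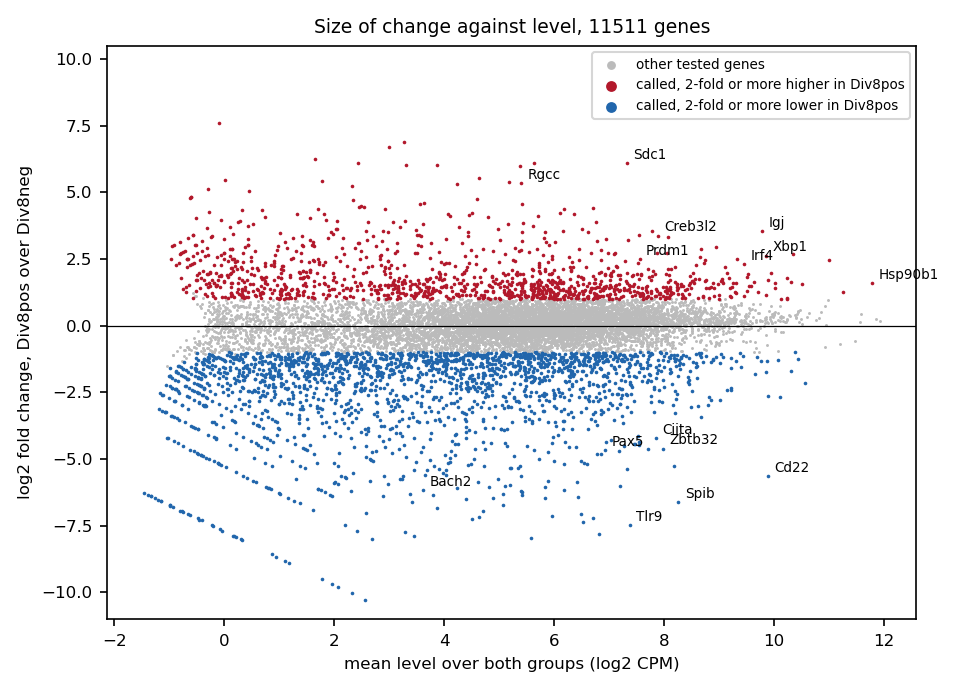
Each point is 1 of 11511 tested genes, by its mean level over both fractions (log2 CPM, x axis) and its log2 fold change, Div8pos over Div8neg (y axis). Red points are genes called 2-fold or more higher in Div8pos (1175) and blue points are genes called 2-fold or more lower (2042); labelled losses such as Spib and Tlr9 lie farther from 0 than labelled gains such as Irf4 and Xbp1. Sdc1 is the sort marker, and the straight lines of points at the lower left are genes with 0 or a few counts in Div8pos.

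The factors that drive antibody-secreting cells were higher in Div8pos. Among 13 transcription and elongation factors of plasma cells, 11 were higher, 8 of them 2-fold or more, and 2 were lower; the median log2 fold change was 1.20, against 0.015 over all tested genes. Prdm1, the repressor Blimp-1 that shuts down the B cell programme, had 323 and 316 CPM in Div8pos, against 50.5 and 65.2 CPM in Div8neg. The fractions did not overlap, as in 87.4% of all tested genes, and Div8neg was not at 0. The log2 fold change of Prdm1 was 2.48, SE 0.097, adjusted p 6.84e-15. Irf4, a factor required for plasma cell formation, had 1194 and 1152 CPM in Div8pos, against 225 and 251 CPM in Div8neg. Xbp1, the factor that widens the secretory apparatus, had 1631 and 1567 CPM in Div8pos, against 241 and 279 CPM in Div8neg. Both were about equally high in the 2 Div8pos libraries, 4.94-fold for Irf4 (2.30, SE 0.055, adjusted p 3.24e-18) and 6.18-fold for Xbp1 (2.63, SE 0.059, adjusted p 1.37e-18). The largest gains of the list were those of Bhlha15 (Mist1), a factor of secretory cells, with 339.8 and 339.7 CPM in Div8pos, against 27.2 and 38.5 CPM in Div8neg, and of Creb3l2, a membrane-bound relative of ATF6, with 434 and 433 CPM in Div8pos, against 35.2 and 49.1 CPM in Div8neg. In both genes host 197 gave the higher Div8neg value and the Div8pos values were nearly equal. Their log2 fold changes were 3.39 (SE 0.1) and 3.37 (SE 0.076), and that of Ell2, an elongation factor that favours the secreted form of antibody message, was 2.88 (SE 0.067).

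The 2 factors of that list that fell were both zinc-finger repressors. Zbtb32, known to restrain antibody recall responses in mice, had 19.9 and 20.2 CPM in Div8pos, against 471 and 506 CPM in Div8neg. It fell 24.4-fold (log2 -4.61, SE 0.13, adjusted p 6.54e-17), with no overlap between fractions, as in 87.4% of all tested genes. Zbtb20, which has been tied to long-lived plasma cells, had 8.48 and 9.74 CPM in Div8pos, against 28.3 and 28.5 CPM in Div8neg and fell by 1.65 in log2 (SE 0.11).

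Of 27 tested plasma cell surface and secretory genes, 22 were higher, 17 of them 2-fold or more, 2 were lower and 3 were not called; the median was 1.59. Igj, the joining chain of IgM and IgA polymers, had 1508 and 1746 CPM in Div8pos, against 118 and 162 CPM in Div8neg. Host 197 was the higher of the 2 in each fraction, and the fold was 11.8 (3.56, SE 0.1, adjusted p 5.13e-17). Tnfrsf17 (BCMA), a survival receptor of plasma cells, was low in all libraries, with 11.2 and 8.43 CPM in Div8pos, against 0.346 and 0.151 CPM in Div8neg. Its Div8neg values are a handful of counts, so the log2 fold change of 5.23 (SE 0.33) is imprecise. Cxcr4, the chemokine receptor that guides plasma cells to bone marrow, had 199.7 and 191 CPM in Div8pos, against 33.8 and 37.4 CPM in Div8neg, a log2 fold change of 2.46 (SE 0.081). Cd28, the costimulatory receptor that plasma cells also carry, had 31.3 and 41.8 CPM in Div8pos, against 0.485 and 1.36 CPM in Div8neg, and Epcam, an adhesion molecule, had 75.9 and 65.9 CPM in Div8pos, against 1.94 and 1.44 CPM in Div8neg; both were near the bottom of the measured range in Div8neg and plainly present in Div8pos. The 2 genes that fell were Lgals3 (galectin-3, log2 -3.33) and Gpr183 (EBI2, an oxysterol receptor for B cell positioning, log2 -0.59). The fall of Gpr183 was relative only: per cell its log2 difference was -0.041, not called.

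Genes outside these lists were among the largest gains. Besides the sort marker, Cd28 and Epcam, the 12 largest gains above 10 CPM were Mt2, Creg2, Chst1, Prlr, Gpnmb, Ak7, Cacna1h, Dusp9 and Rgcc. Chst1, a sulfotransferase of sugar chains, had 97.9 and 97.8 CPM in Div8pos, against 1.11 and 1.74 CPM in Div8neg. Cacna1h, a T-type calcium channel subunit, had 89.2 and 74.1 CPM in Div8pos, against 0.762 and 1.82 CPM in Div8neg. Rgcc, a regulator of cell cycle kinases, had 87.6 and 78.0 CPM in Div8pos, against 1.94 and 2.12 CPM in Div8neg. In each of the 3 genes the Div8pos libraries lay close to each other and Div8neg was near 0. Mt2, a metallothionein that binds zinc and copper, was uneven between hosts, with 4.24 and 34.1 CPM in Div8pos, against 0.0692 and 0.227 CPM in Div8neg, so its size is not a stable figure. Chac1, a glutathione-degrading enzyme induced by amino acid and ER stress, showed the same unevenness, with 2.91 and 12.4 CPM in Div8pos, against 0.346 and 0.833 CPM in Div8neg.

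**Figure D2:**
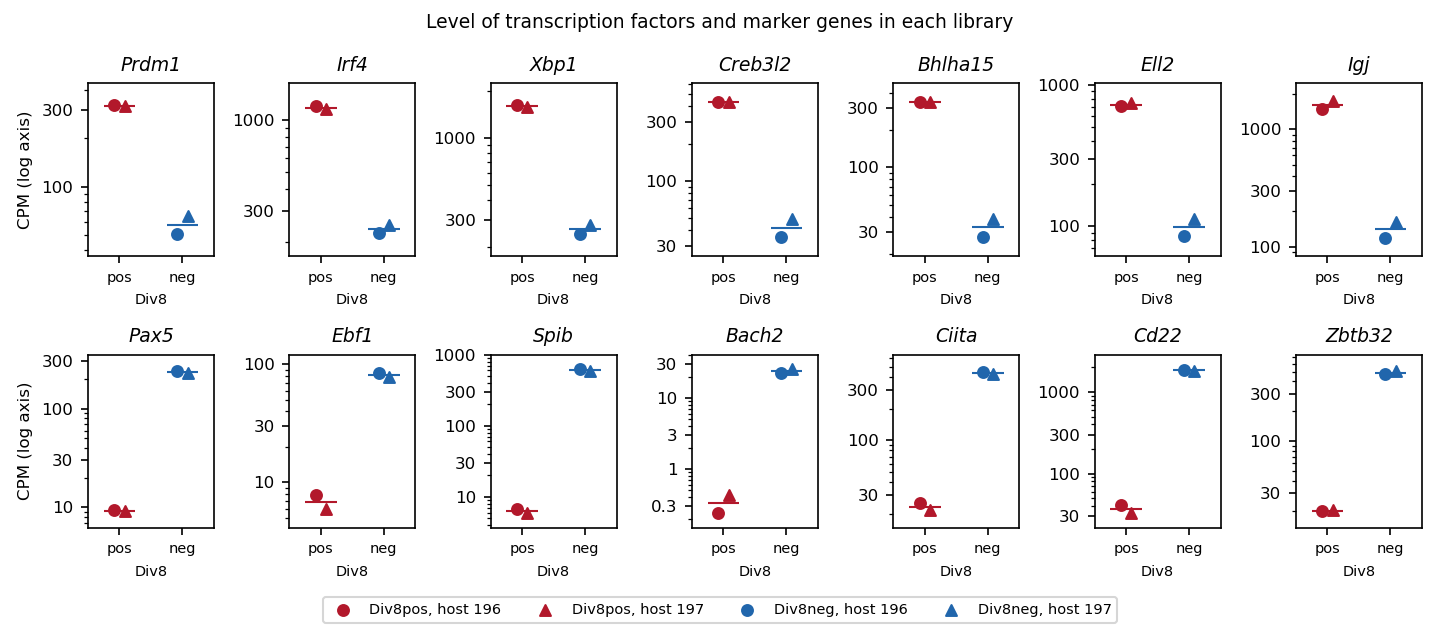
Each panel shows 1 gene in CPM on a log axis, with Div8pos (red) left of Div8neg (blue); circles are host 196, triangles host 197 and the bar is the mean of 2. The upper row holds genes higher in Div8pos and the lower row genes lower in Div8pos. The fractions do not overlap in any panel, as in 87.4% of all tested genes. The widest gap is that of Spib (6.68 and 5.82 CPM in Div8pos, against 635 and 584 CPM in Div8neg).

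The factors of B cell identity were lower in Div8pos. Of 30 tested, 25 fell, 20 of them 2-fold or more, 4 were higher and 1 was not called; the median log2 fold change was -1.72 relative to all genes and -1.15 per cell, where 20 of the 30 were lower. Pax5, the factor that holds B cell identity, had 9.42 and 9.21 CPM in Div8pos, against 239.7 and 229.6 CPM in Div8neg, a 25.2-fold fall (log2 -4.65, SE 0.077, adjusted p 1.81e-20). Spib, an Ets factor that acts against plasma cell formation, had 6.68 and 5.82 CPM in Div8pos, against 635 and 584 CPM in Div8neg, a 97.2-fold fall (-6.60, SE 0.077, adjusted p 2.64e-22). Both genes were even between hosts in both fractions. Bach2, a repressor of Prdm1, had 0.236 and 0.435 CPM in Div8pos, against 22.6 and 25.9 CPM in Div8neg. Zeb2, a zinc-finger E-box factor, had 1.34 and 1.30 CPM in Div8pos, against 180.4 and 178 CPM in Div8neg. All 4 of these genes were near 0 in Div8pos and far from it in Div8neg. Ebf1, which acts with Pax5 in early B cells, fell by 3.57 in log2 (SE 0.087). Of the 4 that were higher, Pou2af1 (OCA-B), a coactivator of octamer promoters, had 1618 and 1616 CPM in Div8pos, against 801 and 793 CPM in Div8neg, and Mitf stayed under 2 CPM everywhere; Tcf3 (log2 0.18) and Foxo1 (log2 0.24), named after their values were seen, are the other 2. Summed over the list, mRNAs per cell were 499.2 and 434.4 in Div8pos, against 524.9 and 561.4 in Div8neg, since Pou2af1 alone gave 257 and 227 mRNAs per cell in Div8pos, against 78.0 and 84.0 in Div8neg.

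Signalling genes of the B cell receptor were lower at nearly every tested step. Of 36 genes, 33 fell, 25 of them 2-fold or more, and 3 were higher; the median was -1.59. The inhibitory co-receptors fell farthest: Cd22 had 41.1 and 33.2 CPM in Div8pos, against 1887 and 1831 CPM in Div8neg, a 50.0-fold fall, and Cd72 had 10.9 and 10.4 CPM in Div8pos, against 278 and 282 CPM in Div8neg, a 26.2-fold fall. The signalling chains of the receptor fell less, with log2 fold changes of -1.58 for Cd79a and -1.13 for Cd79b. Thus Cd22 was nearly lost per cell, with 3.44 and 2.46 mRNAs per cell in Div8pos, against 96.7 and 102 in Div8neg. Cd79a was lower per cell as well but still present, at 91.3 and 82.4 in Div8pos, against 168 and 185 in Div8neg. The 3 genes that were higher were Pik3cg, a phosphoinositide 3-kinase catalytic subunit, with 167 and 187 CPM in Div8pos, against 25.6 and 28.6 CPM in Div8neg, Blnk, the receptor's adaptor (log2 0.39), and Rasgrp3 (log2 0.18, named after its values were seen). Summed over the list, mRNAs per cell were 721.3 and 621.6 in Div8pos, against 1288 and 1382 in Div8neg.

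Other B cell surface genes followed: of 30, 26 were lower, 22 of them 2-fold or more, and 2 were higher, with a median of -2.06. Fcer2a (CD23), the low-affinity IgE receptor, had 4.24 and 3.56 CPM in Div8pos, against 166 and 118 CPM in Div8neg. Cd86, the ligand by which B cells costimulate T cells, had 1.10 and 1.30 CPM in Div8pos, against 41.8 and 45.5 CPM in Div8neg. Ms4a1 (CD20) fell by 2.80 in log2. Fcer2a and Cd86 were both under 5 CPM in Div8pos. Cd24a, a B lineage surface protein, was higher relative to all genes (log2 0.43), as was the class I gene H2-Q7 (log2 0.73), whose close relatives in the H2-Q family make its counts uncertain.

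The genes of antigen presentation by MHC class II fell to different degrees. Of 16 tested, 14 were lower, 9 of them 2-fold or more, 1 was higher and 1 was not called, with a median of -1.25 relative to all genes and -0.70 per cell. Ciita, the master coactivator of the class II genes, had 25.3 and 21.6 CPM in Div8pos, against 449 and 429.9 CPM in Div8neg, an 18.7-fold fall (-4.23, SE 0.059, adjusted p 3.83e-21). H2-Oa and H2-Ob, the chains of a modulator of peptide loading, fell by 5.32 and 3.09 in log2, and H2-DMb1, a chain of the peptide loader itself, by 2.43. The presenting chains and their invariant chain, named after their values were seen, fell less: H2-Aa by 0.97, H2-Ab1 by 0.94, Cd74 by 0.69 and H2-Eb1 by 1.32 in log2. H2-Eb1 was also called lower per cell, with 129 and 101 mRNAs per cell in Div8pos, against 185 and 202 in Div8neg. H2-Aa, H2-Ab1 and Cd74 were not called per cell, and Cd74 stood at 537 and 444 mRNAs per cell in Div8pos, against 522 and 552 in Div8neg. Per cell the coactivator thus differed 11.8-fold between fractions, while the summed class II message was 1251 and 1010 in Div8pos, against 1488 and 1573 in Div8neg. Rfxap, a subunit of the factor that binds class II promoters, was higher (log2 0.57).

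Receptors for position and adhesion changed in both directions. Of 31 tested, 21 (67.7%) were lower, 17 of them 2-fold or more, and 9 (29.0%) were higher, 7 of them 2-fold or more. Over all tested genes 37.7% were lower and 38.8% higher. The median of the list was -1.09. Ccr6, which responds to CCL20, had 5.03 and 3.91 CPM in Div8pos, against 301 and 279 CPM in Div8neg, and S1pr3, a sphingosine-1-phosphate receptor, had 1.02 and 1.22 CPM in Div8pos, against 85.6 and 83.4 CPM in Div8neg. Itgam, the alpha chain of the integrin Mac-1, had 2.59 and 1.48 CPM in Div8pos, against 103 and 131 CPM in Div8neg; it is also one of the myeloid markers given above. On the rising side were Cxcr4, Ccr10 and Ccr9, receptors known from plasma cell homing to bone marrow, mucosa and gut. Ccr10 had 16.1 and 11.0 CPM in Div8pos, against 1.25 and 1.06 CPM in Div8neg and Ccr9 had 10.1 and 8.26 CPM in Div8pos, against 1.38 and 1.06 CPM in Div8neg. Both were low, with no overlap between fractions, as in 87.4% of all tested genes.

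Among the 12 largest falls, Myo1f, an unconventional myosin of leukocytes, had 1.10 and 1.13 CPM in Div8pos, against 180.2 and 186 CPM in Div8neg. Tlr9, the receptor for unmethylated CpG DNA, had 1.81 and 1.91 CPM in Div8pos, against 325 and 337 CPM in Div8neg, a 177-fold fall. Ackr2, a chemokine scavenger, had 1.41 and 1.39 CPM in Div8pos, against 209 and 205 CPM in Div8neg. Each was under 2 CPM in Div8pos. Also among these 12 were Itga8, Slc6a12, Ms4a4c, Gbp2b, Gapt, Cyp8b1, Ffar1 and Tlr3, several with almost no counts in Div8pos, so their fitted folds are not given. In 38 genes both Div8pos libraries had 0 counts while both Div8neg libraries had 10 or more, and in 1 gene, Apcs, it was the reverse. Itga8, an integrin alpha chain, had 0 and 0 counts in Div8pos, against 152 and 174 in Div8neg, at least 101-fold lower when Div8pos is set at a floor of 3 counts over its 2 libraries. Alox5ap, the 5-lipoxygenase activating protein, had 0 and 0 counts in Div8pos, against 132 and 102 in Div8neg, at least 72.4-fold lower by the same floor. Il6, the cytokine interleukin 6, had 0 and 0 counts in Div8pos, against 46 and 54 in Div8neg, at least 30.9-fold lower. Apcs, serum amyloid P, had 22 and 23 counts in Div8pos, against 0 and 0 in Div8neg, at least 16.2-fold higher.

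Messages for the machinery of the ER were higher almost throughout. Of 53 tested chaperones, disulfide isomerases and degradation factors of the ER, 51 were higher, 37 of them 2-fold or more, 1 was lower and 1 was not called; the median log2 fold change was 1.37. Summed over the list, mRNAs per cell were 5502 and 5476 in Div8pos, against 1240 and 1598 in Div8neg. Hsp90b1 (GRP94), the chaperone that folds Toll-like receptors and integrins, had 4954 and 5659 CPM in Div8pos, against 1596 and 1939.7 CPM in Div8neg. Hspa5 (BiP), the chaperone that holds unassembled antibody heavy chains, had 3111 and 3828 CPM in Div8pos, against 1304 and 1624 CPM in Div8neg. Both were high in every library and higher in host 197 than in host 196 in each fraction; the folds were 3.01 and 2.37. Fkbp11, a prolyl isomerase of secretory cells, had 125 and 136 CPM in Div8pos, against 5.61 and 8.40 CPM in Div8neg, and Txndc5, a disulfide isomerase, had 2158 and 2359 CPM in Div8pos, against 320.5 and 385 CPM in Div8neg. Creld2, an ER stress-induced protein, had 1030.1 and 1166 CPM in Div8pos, against 159 and 234 CPM in Div8neg. These 3 rose 18.8-fold, 6.42-fold and 5.68-fold. The 1 gene that was lower, Txndc12, fell by 0.20 in log2 relative to all genes and per cell differed by 0.35, not called.

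The promoters of several of these chaperone genes carry the ER stress element, a motif bound by ATF6 and XBP1 together with NF-Y: CCAAT, then 9 bases of any kind, then CCACG. The stretches below were picked because they match this motif, which 10 of the 46 ER folding genes with a promoter window carry. They are from RefSeq promoter windows of build GRCm38.p6, 250 bases before to 50 after each start. They are printed 5′ to 3′ on the gene's own strand, with the 2 fixed parts of the motif in capitals. Where the motif lies on the opposite strand it reads CGTGG, 9 bases, ATTGG.
Hspa5, chr2:34772013-34772055, plus strand: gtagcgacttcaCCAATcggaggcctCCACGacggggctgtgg
Pdia6, chr12:17266479-17266521, plus strand: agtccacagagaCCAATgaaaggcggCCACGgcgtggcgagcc
Dnajc3, chr14:118937815-118937857, plus strand: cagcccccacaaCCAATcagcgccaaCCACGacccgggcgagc
Hsp90b1, chr10:86705626-86705668, minus strand: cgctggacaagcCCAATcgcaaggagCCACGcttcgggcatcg
Hsp90b1, chr10:86705521-86705563, minus strand: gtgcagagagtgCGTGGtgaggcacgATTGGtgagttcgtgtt
Calr, chr8:84847063-84847105, minus strand: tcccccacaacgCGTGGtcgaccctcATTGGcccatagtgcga
Derl3, chr10:75893230-75893272, plus strand: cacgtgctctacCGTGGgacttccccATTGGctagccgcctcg
Creld2, chr15:88819508-88819550, plus strand: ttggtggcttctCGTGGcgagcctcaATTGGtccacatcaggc
Read down the lines, the 2 fixed parts recur because the stretches were picked by them, and the motif leaves the 9 bases between them free. The stretch of Creld2 is also in the window of Alg12, its neighbour read from the other strand, which encodes a mannosyltransferase of the ER.

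The motif was found in few promoter windows and in many of the chaperone list. It was found, on either strand, in 39 of 32851 windows (0.119%), in 17 of the 9230 tested genes that have a window (0.184%), and in 10 of the 46 ER folding genes that have one (21.7%). Those 10 were Creld2, Derl3, Hsp90b1, Dnajc3, Pdia6, Hspa5, Calr, Syvn1, Canx and Ero1lb, with log2 fold changes of 2.51, 1.85, 1.59, 1.46, 1.41, 1.25, 0.95, 0.74, 0.72 and 0.66 in that order; all 10 were called higher. Outside the list the changes were smaller or downward: Alg12, across the same stretch as Creld2, changed by 0.25, Acacb, an acetyl-CoA carboxylase, by -1.55, and Adcy3, an adenylate cyclase, by -2.63. Over the 17 genes the median log2 fold change was 0.72 and 6 (35.3%) were 2-fold or more higher, against 0.012 and 9.89% of the 9213 genes without it. Of the 17 genes 10 are in the ER folding list, as are all 6 past 2-fold, so this contrast is not separate from that of the list. Over the whole list, with or without the motif, 51 of 53 tested genes were higher, with a median of 1.37. The lists were chosen with earlier results of these data known, so these are descriptions.

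The core of another element of the same response, TGACGTGG (CCACGTCA on the other strand), was in the windows of 96 of the 9230 genes (1.04%) and of 222 of 32851 windows (0.676%). Of those 96 genes, 28 (29.2%) were 2-fold or more higher, against 9.73% of the 9134 genes without it, and the medians were 0.44 and 0.0093. It was in 3 of the 46 ER folding genes and in 8 of the 49 vesicle genes that have a window (16.3%). Shown as examples are the stretches of the 2 vesicle genes with the largest rise and of the folding gene Txndc5, from the same build, with the core in capitals.
Kdelr3, chr15:79516366-79516397, plus strand: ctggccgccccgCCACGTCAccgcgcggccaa
Sec24d, chr3:123267458-123267489, plus strand: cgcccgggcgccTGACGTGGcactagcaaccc
Txndc5, chr13:38528033-38528064, minus strand: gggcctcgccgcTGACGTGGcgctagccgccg
The core begins 30 bases before the start in Kdelr3, 26 in Sec24d and 138 in Txndc5. As a motif of another programme, the X box CCTAGCAAC of class II promoters was in 94 genes (1.02%), 1 of them, H2-Ob, among the 12 class II genes with a window. Those 94 had a median of -0.044, against 0.014 without it. The X box was also in 3 of the 46 ER folding genes, the same number as for the core above, and in 1 of the 49 vesicle genes. Txndc5 has both the core and the X box. A match is a run of letters and not a bound site.

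**Figure D3:**
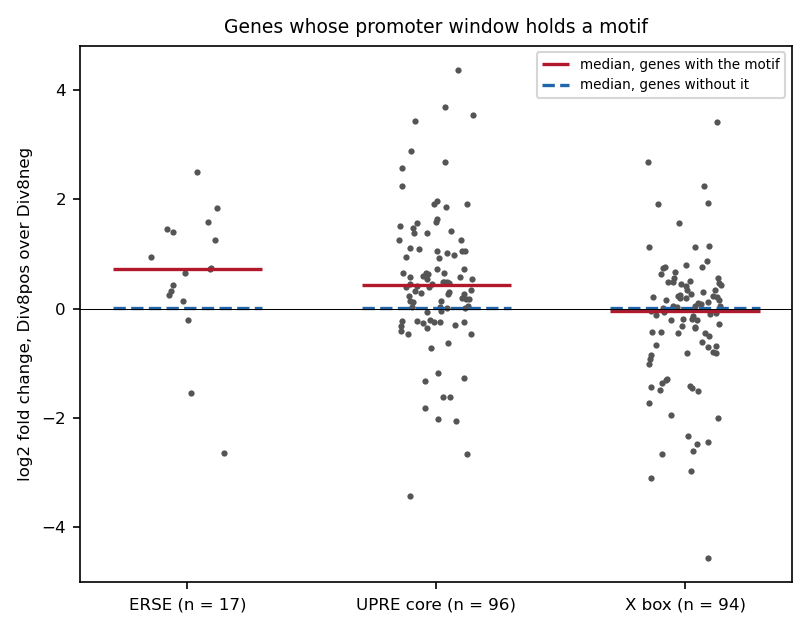
Each point is a tested gene whose promoter window holds the ER stress element (ERSE, n = 17), the core of the second element (UPRE core, n = 96) or the X box (n = 94), by log2 fold change, Div8pos over Div8neg. Solid red bars are medians of genes with the motif (0.72, 0.44 and -0.044) and dashed blue bars medians of genes without it (0.012, 0.0093 and 0.014); some genes with each motif lie below 0.

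The sensors of ER stress moved unequally. Of 21 tested sensors and effectors, 13 (61.9%) were higher, 3 (14.3%) were lower and 5 were not called, with a median of 0.51. Over all tested genes 38.8% were higher and 37.7% lower. Ern1, the kinase and nuclease that splices Xbp1 message, had 77.8 and 84.0 CPM in Div8pos, against 11.3 and 12.9 CPM in Div8neg, a 6.70-fold rise. The other arms rose less: Atf6, a membrane-bound factor cut on stress, by 0.41 in log2, and Eif2ak3 (PERK), which slows translation, by 0.64. The PERK targets named here split, with Asns, asparagine synthetase, at 102 and 130.2 CPM in Div8pos, against 24.0 and 29.3 CPM in Div8neg, and Atf3, a stress repressor, at 0.550 and 0.782 CPM in Div8pos, against 1.87 and 2.27 CPM in Div8neg. Atf3 was low in every library, with 7 and 9 counts in Div8pos, against 27 and 30 in Div8neg. Chac1, given above and in the same list, was higher (log2 3.63). Ddit3 (CHOP), the factor of lethal ER stress, was not called, with 11.0 and 20.3 CPM in Div8pos, against 11.7 and 15.3 in Div8neg. Atf6, Eif2ak3 and Ddit3 were named after their values were seen.

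Messages for entry into the ER and for the transfer of sugars were higher as a group. Of 59 tested genes, 53 were higher, 42 of them 2-fold or more, 4 were lower and none of those 2-fold; the median was 1.44. Tram2, which assists the translocation channel, had 99.3 and 108 CPM in Div8pos, against 10.6 and 13.0 CPM in Div8neg. Srprb, a subunit of the receptor for the signal recognition particle, had 460.1 and 465 CPM in Div8pos, against 64.2 and 77.7 CPM in Div8neg, and Ssr2, a subunit of the translocon-associated complex, had 701 and 721 CPM in Div8pos, against 129 and 154 CPM in Div8neg. In all 3 genes host 197 was the higher in Div8neg, and the fractions did not overlap, as in 87.4% of all tested genes. Spcs1, a subunit of the signal peptidase, rose 4.18-fold. Among the 4 that fell, none by as much as 2-fold, were Dpm2, Mpdu1 and Stt3b (the last 2 named after their values were seen); none of the 4 was called lower per cell. Summed mRNAs per cell of the list were 3291 and 3025 in Div8pos, against 695.8 and 823.8 in Div8neg.

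Messages for traffic between the ER and the Golgi were higher too. Of 58 tested genes of COPII and COPI vesicles, 52 were higher, 30 of them 2-fold or more, and 4 were lower; the median was 1.02. Sec24d and Sec24a, cargo adaptors of COPII coats, had 401 and 408 CPM in Div8pos, against 26.0 and 44.7 CPM in Div8neg for Sec24d and 389 and 427 CPM in Div8pos, against 54.4 and 69.4 CPM in Div8neg for Sec24a. The other Sec24 genes, named after their values were seen, changed less, with log2 fold changes of -0.14 for Sec24b and 0.47 for Sec24c. Lman1 (ERGIC-53), a cargo receptor for glycoproteins, had 709 and 752 CPM in Div8pos, against 121 and 146 CPM in Div8neg. Kdelr3, a receptor that returns ER residents, had 6.20 and 6.17 CPM in Div8pos, against 0.208 and 0.378 CPM in Div8neg. It was low in all libraries and, like 87.4% of all tested genes, without overlap. Copg2, a COPI coat subunit, was the 1 gene 2-fold lower (log2 -1.01), and per cell it was not called.

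Amino acid supply genes were higher in the same libraries. Of 41 tested genes of amino acid uptake and synthesis and of tRNA charging, 37 were higher, 17 of them 2-fold or more, and 1 was lower, with a median of 0.78. Pycr1, which makes proline, had 45.6 and 34.2 CPM in Div8pos, against 3.46 and 3.48 CPM in Div8neg. Slc1a4, a transporter of neutral amino acids, had 26.9 and 21.0 CPM in Div8pos, against 7.27 and 7.19 CPM in Div8neg. Both were higher in host 196 within Div8pos and even in Div8neg. The lower gene, Mthfd1l of mitochondrial folate metabolism, differed by -0.24 relative to all genes and by 0.31 per cell, not called.

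Genes of division remained on and were slightly higher. Of 56 mitosis genes 43 were higher and 5 lower, none of them by 2-fold, with a median of 0.26; of 53 replication genes 40 were higher, 5 of them 2-fold or more, and 6 were lower, with a median of 0.39. Mki67, a protein of cycling cells, had 2520.4 and 2359 CPM in Div8pos, against 1455 and 1513 CPM in Div8neg. Cdk1, the mitotic kinase, rose by 0.84 in log2 and Rrm2, a subunit of ribonucleotide reductase, by 1.09. The inhibitors of the cycle had no common direction: 5 of 19 (26.3%) were higher and 9 (47.4%) lower, against 38.8 and 37.7% of all tested genes. Their median was -0.049 relative to all genes and 0.50 per cell. The antiproliferative gene Btg1 had 15.2 and 15.6 CPM in Div8pos, against 205 and 203 CPM in Div8neg, a 13.3-fold fall, while Gadd45b, a stress-induced gene, had 85.8 and 89.8 CPM in Div8pos, against 32.3 and 38.3 CPM in Div8neg.

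Ribosome production genes were higher by small steps. Myc, a transcription factor of growth, hardly differed, with 196 and 195 CPM in Div8pos, against 174 and 169.6 CPM in Div8neg (log2 0.19, SE 0.069, adjusted p 0.0179), a difference past the threshold but of 1.14-fold. Of 46 genes of the MYC network and ribosome biogenesis 38 were higher, 4 of them 2-fold or more, and 7 were lower, with a median of 0.50; Srm, spermidine synthase, rose by 1.68 in log2 and Odc1, ornithine decarboxylase, by 1.43. Of 78 cytosolic ribosomal protein genes 70 were higher and 1, Fau, was lower, none by 2-fold, with a median of 0.20. Reads of such genes can be shared with processed pseudogenes, so single members are uncertain. Of 76 genes of the respiratory chain 56 were higher and 2 lower, none by 2-fold, with a median of 0.31, and Sdhc, a subunit of succinate dehydrogenase, rose the most (log2 0.91).

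Glucose and lipid genes were divided, in shares not far from those of all tested genes (38.8% higher and 37.7% lower). Of 27 genes of glucose uptake and glycolysis 13 (48.1%) were higher and 13 (48.1%) lower, with a median of -0.14 relative to all genes and 0.41 per cell. Hk2, a hexokinase, had 272 and 264 CPM in Div8pos, against 72.2 and 74.7 CPM in Div8neg, and Slc16a1, a lactate transporter, had 228 and 216 CPM in Div8pos, against 90.0 and 85.7 CPM in Div8neg. Aldoc, a minor aldolase, had 0.628 and 1.65 CPM in Div8pos, against 8.72 and 8.10 CPM in Div8neg. Of 41 genes of cholesterol and fatty acid synthesis 14 (34.1%) were higher and 18 (43.9%) lower, with a median of -0.12 relative to all genes and 0.44 per cell. Scd1, which desaturates fatty acids, had 178 and 196 CPM in Div8pos, against 1016 and 996 CPM in Div8neg, and Elovl6, which lengthens them, had 65.0 and 57.2 CPM in Div8pos, against 13.9 and 14.7 CPM in Div8neg, so the 2 enzymes moved in opposite directions.

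Relative to all genes, those of innate response were mostly lower. Of 44 interferon-stimulated genes 34 were lower, 25 of them 2-fold or more, and 7 were higher. The median was -1.19 relative to all genes and -0.613 per cell. Summed over the list, mRNAs per cell were higher, at 521.5 and 478.2 in Div8pos, against 371.6 and 403.0 in Div8neg. Oas1a, an antiviral oligoadenylate synthetase, had 0.393 and 0.348 CPM in Div8pos, against 13.8 and 11.6 CPM in Div8neg. In the other direction, Isg20, an exonuclease, had 75.7 and 94.7 CPM in Div8pos, against 18.4 and 24.8 CPM in Div8neg, and Bst2 (tetherin), which is also listed among plasma cell surface genes, had 71.7 and 72.9 CPM in Div8pos, against 25.3 and 26.3 CPM in Div8neg. Of 44 genes of Toll-like receptors, NF-kB and the activator response 28 were lower, 19 of them 2-fold or more, and 9 were higher. The median was -0.77 relative to all genes and -0.19 per cell, where 15 were higher and 19 lower. This list too summed higher, to 598.1 and 559.5 mRNAs per cell in Div8pos, against 458.7 and 509.8 in Div8neg. Cd83, an activation marker, had 11.4 and 11.2 CPM in Div8pos, against 142 and 126 CPM in Div8neg. Against that direction, the AP-1 genes Jun, with 525 and 650.0 CPM in Div8pos, against 158 and 187 CPM in Div8neg, and Fosb, with 369 and 404 CPM in Div8pos, against 137 and 147 CPM in Div8neg, were higher in both hosts.

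Among 32 survival and death genes 13 (40.6%) were higher and 16 (50.0%) lower, against 38.8 and 37.7% of all tested genes, with a median of -0.23 relative to all genes and 0.28 per cell. Bcl2l1 (Bcl-xL), which guards mitochondria, had 93.0 and 107 CPM in Div8pos, against 17.7 and 20.2 CPM in Div8neg, a 5.27-fold rise, and Pim2, a survival kinase, had 217 and 233 CPM in Div8pos, against 56.2 and 65.3 CPM in Div8neg. Fas, the death receptor, had 7.46 and 5.91 CPM in Div8pos, against 34.9 and 29.9 CPM in Div8neg. The Bcl2a1 genes fell by 2.79 (Bcl2a1a), 2.83 (Bcl2a1b) and 3.01 (Bcl2a1d) in log2; they are near-identical copies, so reads may be split among them and the 3 values are not independent.

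Of 25 genes of class switching and repair 10 (40.0%) were higher and 4 lower, with a median of 0.13; the share higher is close to the 38.8% of all tested genes. Of 38 DNA methylation and chromatin regulators 12 (31.6%) were higher and 18 (47.4%) lower, against 38.8 and 37.7% of all tested genes, with a median of -0.13 relative to all genes and 0.42 per cell. Dnmt3a, a methyltransferase that sets new methylation, had 36.4 and 38.2 CPM in Div8pos, against 179 and 165 CPM in Div8neg (log2 -2.21, SE 0.069, adjusted p 1.76e-16). Dnmt1, which copies methylation after replication, had 554 and 506 CPM in Div8pos, against 615 and 613 CPM in Div8neg; it was lower relative to all genes (log2 -0.21) and not called per cell (0.34). Ezh2, a histone methyltransferase of the Polycomb complex, was slightly higher (log2 0.21). Of 31 genes of splicing choice, polyadenylation and elongation, 12 (38.7%) were higher and 8 (25.8%) lower, against 38.8 and 37.7% of all tested genes. Hnrnpll, which alters the splicing of CD45 in plasma cells, had 47.1 and 46.7 CPM in Div8pos, against 1.18 and 2.35 CPM in Div8neg.

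**Figure D4:**
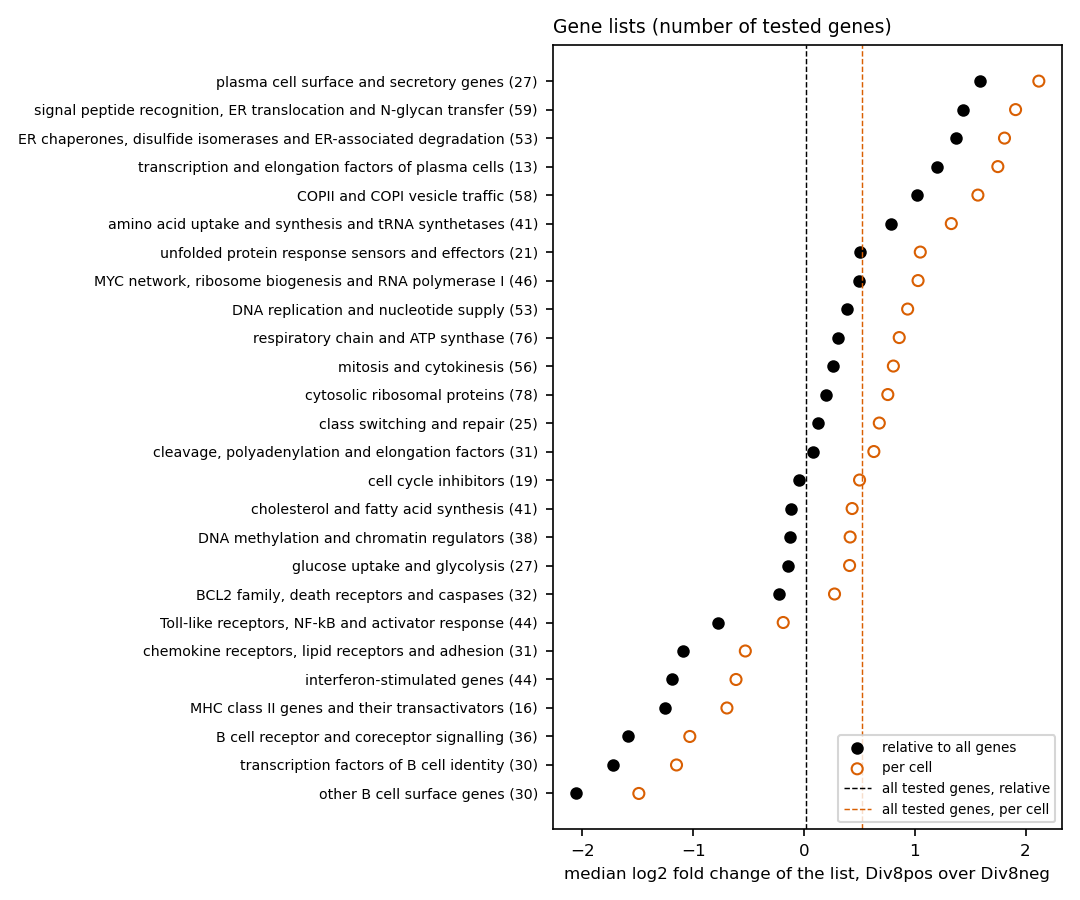
Each row is a gene list with its number of tested genes; filled points are median log2 fold changes, Div8pos over Div8neg, relative to all genes and open points are medians per cell. Dashed lines mark the medians over all 11511 tested genes, 0.015 relative to all genes and 0.528 per cell; lists of ER entry (1.44 and 1.91) and ER folding (1.37 and 1.81) lie to the right and B cell surface genes (-2.06 and -1.49) to the left.

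Counted per cell, the picture shifts to gains. The median log2 difference over all tested genes was 0.528 per cell and 0.015 relative to all genes, so a gene that kept its share of a library had more copies in a Div8pos cell. By limma on log2 of mRNAs per cell plus 0.1, 8233 genes (71.5%) were called: 6304 genes (54.8%) were higher and 1929 (16.8%) lower; 2619 (22.8%) were at least 2-fold higher and 975 (8.47%) at least 2-fold lower. Every gene called higher relative to all genes was also called higher per cell (4472 of 4472). Of the 4341 called lower relative to all genes, 1924 (16.7% of tested genes) were lower per cell as well, 2417 (21.0%) were not called per cell and 0 were called higher. Both sets of calls come from the same reads, and the per-cell scale shifts all genes of a library alike. These overlaps thus follow largely from the scaling and are no second test of the relative calls. The error of a library's scale is shared by all its genes and widens the standard error of each: that of Irf4 was 0.219 per cell and 0.055 relative to all genes. Per-cell calls are thus not independent of each other, and their p-values are not given. Limma also gave each gene the spread shared by genes of like level, with no weight on its own (prior degrees of freedom infinite). The counts of per-cell calls rest on that shared spread and are less certain than their size implies. Without host 196 in Div8pos the counts were 4452 higher and 2019 lower, and without host 197 in Div8pos they were 6848 and 1548.

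Over the counted genes, which hold no immunoglobulin chain segment by symbol, the per-cell gain was wide rather than carried by a few messages. In host 196 the Div8pos cells held 1.80 times the mRNAs of the Div8neg cells and in host 197 1.47 times, a mean of 1.63 ± 0.233 (SD, n = 2 hosts). With 2 pairs an exact paired test cannot give a p below 0.5, so the ratio stands as a value. With the factor taken as the median over 41 spike-ins, the ratios were 1.97 and 1.47. The difference was 77122 mRNAs per cell in host 196 and 48364 in host 197. The 10 genes with the largest gain held 4.86% of it in host 196 and 6.54% in host 197, and the 500 genes with the largest gain held 57.8 and 67.7%. Genes that gained in both hosts numbered 8807, and genes that lost in both numbered 3486. The 100 most abundant genes took 22.7 and 22.9% of the mRNAs in Div8pos, against 22.3 and 21.9% in Div8neg. The concentration of message in top genes was thus alike over the counted genes, and messages outside them are not covered.

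The genes with the largest gains per cell were of 2 kinds. Hsp90b1 led with 732 and 739 mRNAs per cell in Div8pos, against 144 and 191 in Div8neg, and Mzb1, a helper of antibody assembly in the ER, had 516 and 448 mRNAs per cell in Div8pos, against 84.9 and 101 in Div8neg. Hspa5, Calr, Xbp1, Igj and Creld2 were also among the first 10. The rest were messages of general protein synthesis and growth: Eef1a1, the translation elongation factor, had 942 and 839.9 mRNAs per cell in Div8pos, against 516 and 546 in Div8neg, Ptma, prothymosin alpha, had 639 and 552 mRNAs per cell in Div8pos, against 287 and 302 in Div8neg, and Rpl10, a ribosomal protein, had 580.1 and 513 mRNAs per cell in Div8pos, against 256 and 272 in Div8neg. Relative to all genes Eef1a1 differed by only 0.19 in log2, so its gain followed the whole of the cell's message, whereas Hsp90b1 differed by 1.59. The largest loss was that of Tmsb4x, thymosin beta 4, which binds actin, with 259 and 232 mRNAs per cell in Div8pos, against 363 and 378 in Div8neg. Lcp1 (L-plastin), an actin bundler, Cd22 and Sh3bgrl3 were also among the first 5. The largest mean loss, 125 mRNAs per cell for Tmsb4x, was smaller than the smallest of these 10 gains, 270 for Creld2.

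**Figure D5:**
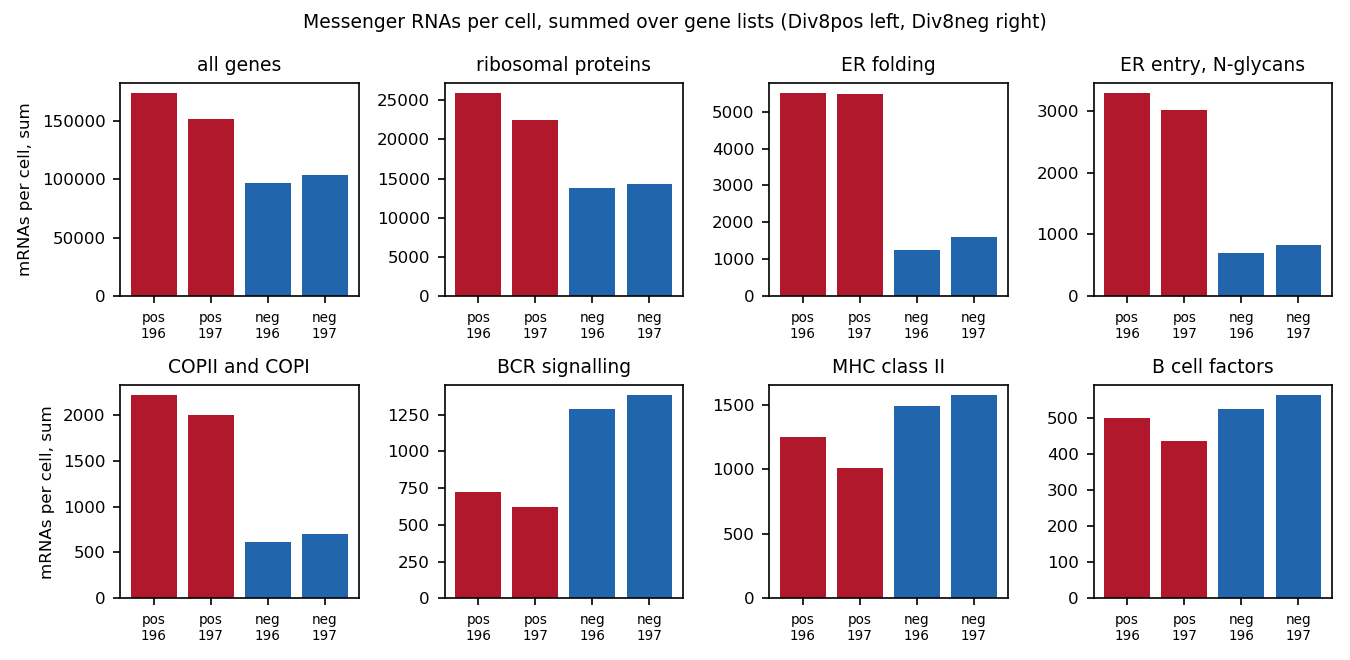
Bars are summed mRNAs per cell in each library, Div8pos in red at the left and Div8neg in blue at the right, for all genes and 7 gene lists; each panel has its own axis from 0. The ER folding list stood at 5502 and 5476 in Div8pos, against 1240 and 1598 in Div8neg, a wider gap than that of all genes together, while the B cell receptor and class II lists were lower in Div8pos.

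No gene with the symbol of an immunoglobulin heavy or light chain segment is part of these sums. A search of the 21761 genes for such symbols returned 0; the 90 genes without a symbol could not be searched. The reads in neither genes nor spike-ins made up 44.4 and 47.7% of the library totals in Div8pos, against 47.7 and 48.9% in Div8neg. Set against the spike-ins, they came to 93.9 and 94.5 reads per spike-in count in Div8pos, against 61.1 and 69.0 in Div8neg. What those reads are was not analysed here.

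Cells sorted at 5 divisions (Div5) set the 2 fractions in the course of the response, and in the first 4 genes given here Div8neg lay between Div8pos and Div5. Prdm1 had 323 and 316 CPM in Div8pos, 50.5 and 65.2 in Div8neg and 17.6 and 26.0 in Div5, and Bhlha15 had 339.8 and 339.7 CPM in Div8pos, 27.2 and 38.5 in Div8neg and 6.12 and 10.3 in Div5. In both, host 197 was the higher in Div8neg and in Div5. Igj had 1508 and 1746 CPM in Div8pos, 118 and 162 in Div8neg and 36.5 and 63.5 in Div5, and Pax5 had 9.42 and 9.21 CPM in Div8pos, 239.7 and 229.6 in Div8neg and 364 and 324 in Div5. Zbtb32 did not follow that order, with 19.9 and 20.2 CPM in Div8pos, 471 and 506 in Div8neg and 276 and 347 in Div5: it was highest of the 3 groups in Div8neg and low in Div8pos. Sdc1, the sort marker, was at 2.69 and 4.73 CPM in Div5 and at about the same level in Div8neg. The steps between Div5 and Div8neg are given as values, without a test.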

How the data were processed

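The authors deposited read counts over exons for 21761 genes (KnownGenes of UCSC, build mm9, in the words of the deposited readme) and counts of ERCC spike-ins. Deposited FPKM values are counts per kilobase of exon and per 1e6 reads, and the deposited mRNAs per cell are those FPKM multiplied by 1 factor per library, 0.769 and 0.7146 in Div8pos and 0.476 and 0.5236 in Div8neg, which is the number of spike-in molecules added per cell divided by the FPKM of all spike-ins, as checked here. Per the submitters' processing notes, Picard, R 3.2.2 and the mm9 genome were used; no source used here gives the aligner, the counting program or its strand setting. Per the labels, reads were 50 bp paired-end from a stranded mRNA kit with 11 PCR cycles. No molecular tags were used to remove PCR duplicates, so counting floors cover counting error only.

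Counts as deposited were tested in R 4.3.3 with edgeR 4.0.16 (TMM factors, glmQLFit and glmQLFTest on group means plus host over all 12 libraries) for the 11511 genes with 10 or more counts in both libraries of either fraction; 10160 other genes with a symbol and 90 without one (0.05 to 0.094% of counts) were left out. CPM values of single genes use TMM-scaled library sizes, and CPM sums of marker lists use plain totals of gene counts. Per-cell values were tested with limma 3.58.1 with trend on log2(mRNAs per cell + 0.1) in the same design, so fold changes of scarce genes are understated. A gene was called at an adjusted p under 0.05. "Relative" means relative to all genes of the library. Hosts pair the libraries because each host gave 1 of each fraction; deviations of same-host libraries correlated at 0.0996 over genes. Replicate libraries differed by more than sampling noise (chi-square over degrees of freedom 3.71 in Div8pos and 2.45 in Div8neg).

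The fits were tested on simulated counts without a host effect. Of 100 genes changed by 1 in log2 edgeR recovered 100, and of 100 changed by 0.6 it recovered 99, with 3 false calls. Limma recovered 100 and 98, with 9 false calls. No error of a library's scale was simulated, so the per-cell calls were not checked against it. DESeq2 1.42.0, other scalings, filters, pseudocounts, fits without the host block and fits without each library were alternatives. The libraries compared, the 32 gene lists and the tests were chosen with earlier results of these data known. Named genes are the 12 largest called changes each way at 10 CPM or more, 18 anchor genes, up to 4 and 2 called genes of each list by direction, the 10 largest gains and 5 largest losses per cell, and the 5 genes of most counts that were 0 in the other fraction; a few others are marked as named later. Some genes that this rule names are not reported here. Bisulfite libraries were not analysed here.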

Additional observations from a re-analysis of the deposited data

How the results depend on the processing

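The counts of called genes over both directions kept to within 1.5 times of their main values under every alternative run. By direction, spike-in scaling moved 3 counts by more: it gave 1747 lower genes, against 4341 relative to all genes, and past 2-fold 3262 higher and 1216 lower, against 1175 and 2042. Leaving out 1 library at a time gave 7999 to 8430 called genes relative to all genes, 3109 to 3212 past 2-fold and 6295 to 8396 per cell; a fraction left with 1 library was assumed to vary like the other groups. Without the host block, which pairs the libraries, the counts were 8572, 3197 and 8099, and DESeq2 called 7874. The total of mRNAs per cell gave a ratio of 1.72 with the median of spike-in ratios and 1.63 without the 10 most abundant genes. Spike-in scaling, which adds about 0.6 in log2 to every gene, turned the sign of 10 small falls: Dnmt1 0.396, Dpm2 0.369, Fau 0.467, Pold1 0.127, Kif15 0.237, Mthfd1l 0.367, Gpr183 0.0192, Txndc12 0.398, Kif23 0.0624 and Ndufv3 0.423. Per cell, some values close to 0 changed sign. Leaving out 1 library at a time gave -0.345 to 0.345 for Kif23, -0.371 to 0.289 for Gpr183, -0.176 to 0.0895 for Trappc1, -0.324 to 0.185 for Rfc2, -0.408 to 0.0653 for Cox7a2l, -0.210 to 0.356 for Pold1 and -0.114 to 0.471 for Kif15. The low end came without Div8pos of host 196 and the high end without Div8pos of host 197; without Div8neg of host 196 Kif23 was 0.0398 and Trappc1 0.000789. With edgeR and spike-in scaling Kif23 was 0.0624 and Gpr183 0.0192, and with a pseudocount of 1 Kif23 was 0.000949. Of the named genes' values under alternatives, 50 of 2496 relative and 32 of 1872 per cell lost their call with the same direction, and 15 per cell gained one. With 2 hosts a difference between hosts cannot be resolved, and genes with a few counts in 1 fraction have no stable fold. The cause of any of these changes was not tested.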
